A study of Mus musculus with 6 samples.

Results

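The genes examined here make and restrain plasmin, the protease that dissolves fibrin, and start or brake the clotting that lays fibrin down. They were taken by name from the deposited expression table: Plat, Plau, Plaur, Plg, Serpinf2, Cpb2, F3, Tfpi and Thbd, 9 of its 28476 genes. The table holds FPKM (fragments per kilobase of transcript and sequencing depth, a level that can be compared between genes) for 6 livers of C57BL/6 mice. Of these livers, 3 came from mice labelled Flox and 3 from mice labelled Nedd4 HepKO. Every mouse was fasted overnight and given 300 mg/kg acetaminophen (APAP) into the peritoneum, and livers were taken 24 h later. Livers without the drug are not analysed here, so each difference is between genotypes after the drug. The labels do not name the promoter that drives recombination, the sex or age of the mice, or whether each library stands for 1 animal, so p-values here rest on the spread among libraries, part of which may be technical. The 9 genes were chosen by function with their FPKM in this same contrast, HepKO against Flox, already known, so their calls below place them within a fit over all genes and are not independent evidence.

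Plasminogen (Plg) is a zymogen made by hepatocytes. Tissue-type and urokinase-type activators (Plat and Plau) cut it to plasmin, the urokinase receptor (Plaur) holds urokinase at the cell surface, and alpha-2-antiplasmin (Serpinf2) inactivates plasmin. Tissue factor (F3) starts clotting when plasma reaches it and is blocked by tissue factor pathway inhibitor (Tfpi). Thrombomodulin (Thbd) binds thrombin and turns it towards protein C and towards the procarboxypeptidase encoded by Cpb2, whose active form trims the fibrin ends to which plasminogen binds. Acetaminophen overdose is known to activate the coagulation cascade in the liver.

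Nedd4, the gene named in the HepKO label, was at 2.18, 2.59 and 2.23 FPKM in Flox livers, against 0.618, 0.666 and 0.565 FPKM in the HepKO group, so every library matched its label. Summed FPKM ran from 456176 to 496303 per library. The share of FPKM on mitochondrial genome transcripts was 24.6% in HepKO replicate 1 and 16.7% to 18.3% in the other 5 libraries, so the called members are also given below without that library. The 8 hepatocyte markers summed to 32797 to 38941 FPKM in Flox and 35689 to 39824 FPKM in HepKO livers, as the liver label implies. In whole liver, fewer cells of a type and less RNA per cell cannot be told apart.

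Promoter windows of 5 of the 9 members were matched in RefSeq's GRCm38.p6 table: those of Plaur, F3, Cpb2, Serpinf2 and Tfpi, the last with 2 start sites. Plat, Plau, Plg and Thbd were not matched. The 250 bases before the start sites of Plaur and F3, which were both higher in HepKO livers, and of Cpb2, whose levels overlapped between groups, are shown as a description. Capitals mark matches to the AP-1 motif TGANTCA or the cyclic AMP response element TGACGTCA, searched on both strands. The windows are chr7:24462233-24462482 for Plaur, chr3:121723287-121723536 for F3 and chr14:75242037-75242286 for Cpb2, all on the plus strand, written 5′ to 3′.
Plaur: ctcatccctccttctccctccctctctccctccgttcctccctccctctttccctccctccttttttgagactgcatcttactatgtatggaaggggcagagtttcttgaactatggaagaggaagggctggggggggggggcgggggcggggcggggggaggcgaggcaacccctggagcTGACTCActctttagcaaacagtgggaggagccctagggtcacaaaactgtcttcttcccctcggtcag
F3: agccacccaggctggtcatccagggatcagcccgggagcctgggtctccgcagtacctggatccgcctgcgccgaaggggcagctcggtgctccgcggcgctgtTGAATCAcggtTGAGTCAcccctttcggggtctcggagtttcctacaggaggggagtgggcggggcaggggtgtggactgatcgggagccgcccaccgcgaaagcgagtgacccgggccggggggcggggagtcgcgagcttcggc
Cpb2: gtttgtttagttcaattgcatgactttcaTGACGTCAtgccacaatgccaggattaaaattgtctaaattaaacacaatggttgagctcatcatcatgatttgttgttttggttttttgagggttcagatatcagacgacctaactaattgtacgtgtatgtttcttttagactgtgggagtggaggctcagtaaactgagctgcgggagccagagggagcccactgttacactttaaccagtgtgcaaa
The Plaur window held 1 AP-1 match, TGACTCA, at -69 to -63 from the start site. The F3 window held 2 AP-1 matches, TGAATCA at -146 to -140 and TGAGTCA at -135 to -129. No AP-1 match was found in the windows of Cpb2, Serpinf2 or Tfpi. Over all 32841 RefSeq windows of this length, 6.75% held an AP-1 match. The Cpb2 window held TGACGTCA at -221 to -214, a motif found in 1.55% of all windows.

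GC boxes (GGGCGG, 32.7% of all windows) were matched 3 times each in the windows of Plaur and F3 and once in each Tfpi window. The Plaur boxes lay side by side or sharing a base between -111 and -95. Those at -111 to -106 and -105 to -100 overlapped a match to the EGR motif GCGNGGGCG at -109 to -101, a motif in 4.70% of windows. The hypoxia core ACGTG (16.6% of windows) was found among the members only in Cpb2, and CAAAGTCCA, an HNF4 motif (0.384%), in none of the 6 windows. These are matches of letters within 250 bases and do not show binding. Windows were at hand for only 5 of the 9 members, Thbd and Plg not among them. Whether any motif goes with a change in level was not tested.

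**Figure D1:**
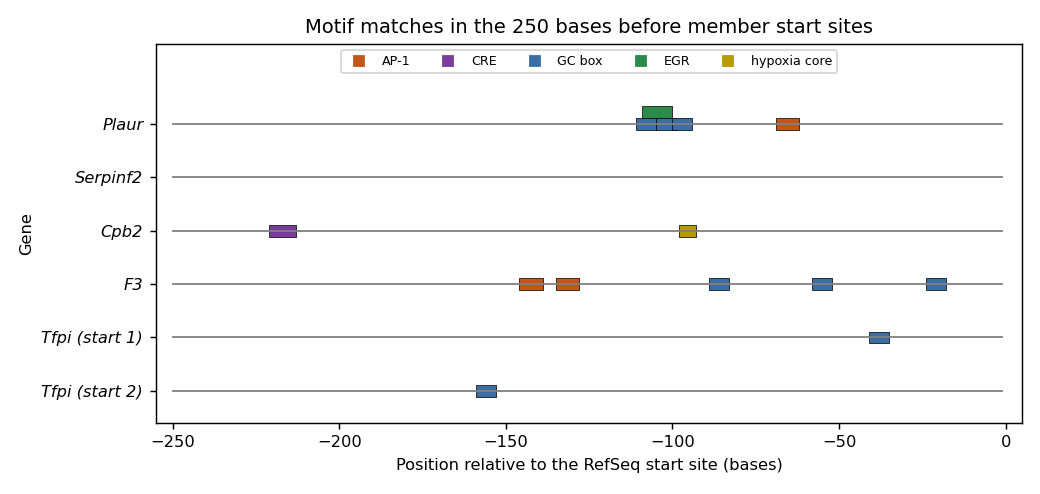
Motif matches in the 250 bases before 6 RefSeq start sites of 5 member genes. The horizontal axis is the position relative to the start site in bases, and coloured boxes are matches on either strand, with the EGR match raised above the GC boxes it overlaps; AP-1 matches (orange) are seen in Plaur and F3 and in none of the other 4 windows.

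Across the 9 members, the receptor Plaur, the clotting starter F3 and the thrombin cofactor Thbd rose in HepKO livers, and the zymogen Plg fell. Serpinf2, the plasmin inhibitor gene, and Cpb2, whose product slows fibrin breakdown, did not pass the test, nor did Plau or Tfpi. The test was limma on log2(FPKM + 1) over the 12712 genes that averaged 0.5 FPKM or more, with Benjamini-Hochberg adjustment and a threshold of 0.05. Of the 8 members that met this minimum, 3 were called higher and 1 lower. Over all tested genes 20.3% were called, 9.33% higher and 11% lower. Falls outnumbered rises in that fit (1397 and 1186), whereas rises outnumbered falls after median-ratio rescaling (1374 and 1260) and after rescaling to a common sum without mitochondrial and the 50 most abundant genes (1350 and 1231). Nothing is read from the members' count since this contrast was known when they were picked. The groups did not overlap for 5 of the 8 tested members, against 42.4% of all tested genes. The median log2 fold change was 0.20 over the 8 members and -0.06 over all tested genes. Plat, with a mean of 0.412 FPKM, was below the minimum and was not tested in this fit.

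**Figure D2:**
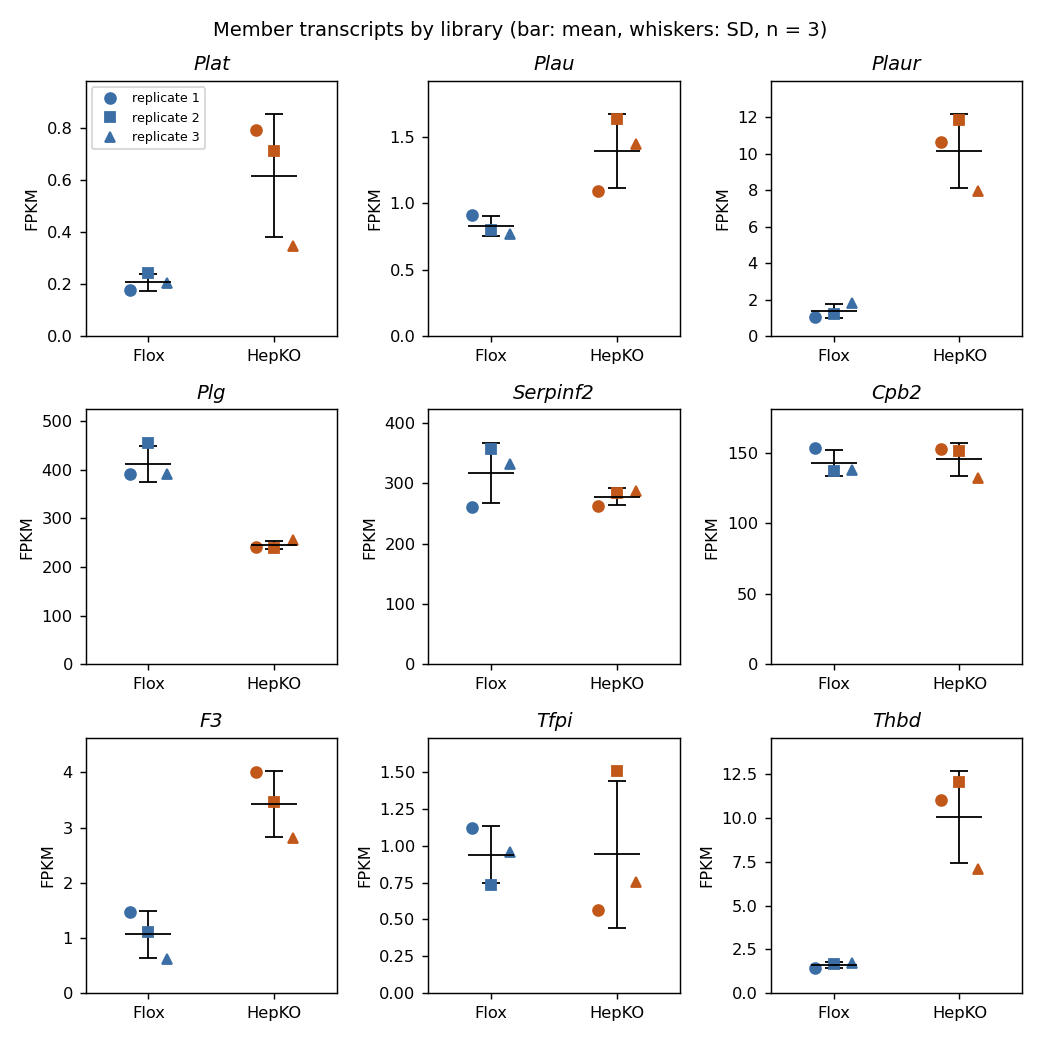
FPKM of the 9 member genes in each of 6 livers, 1 panel per gene, with vertical axes from 0. Points are libraries (shape gives the replicate), bars are group means and whiskers SD (n = 3); HepKO points lie wholly above Flox points for Plat, Plau, Plaur, F3 and Thbd and wholly below them for Plg.

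Plaur (ENSMUSG00000046223, chromosome 7, 24462484 to 24475968 on GRCm38) encodes the surface receptor of urokinase. It had 1.06, 1.20 and 1.79 FPKM in Flox livers, against 10.6, 11.9 and 7.93 FPKM in HepKO livers. All HepKO livers were high, and the lowest of them, replicate 3, was still over 4 times the highest Flox liver. The means were 1.35 ± 0.385 and 10.1 ± 2.02 FPKM (SD, n = 3), a 7.52-fold rise (log2 fold change 2.24, SE 0.18, 95% interval 1.81 to 2.67, limma adjusted p = 0.00096). This was the 59th largest rise on the log2 scale among the 12712 tested genes. Without HepKO replicate 1 the log2 fold change was 2.20 (limma adjusted p = 0.0060). Neutrophils and monocytes are known to carry this receptor. All 8 tested neutrophil markers, among 9 in the table, were higher in HepKO livers, with summed levels of 10.5 to 20.3 FPKM in Flox and 135 to 160.0 FPKM in HepKO livers. The defining marker Ly6g was listed at 0 in every Flox liver, averaged only 0.124 FPKM in HepKO livers and was not tested. Of 9 tested macrophage and monocyte markers, 3 rose (Lyz2, Ccr2 and Itgam), 0 fell and 6 did not pass. The sums of this list, 75.9 to 109 FPKM in Flox and 108 to 126 FPKM in HepKO livers, overlapped. Their part in the Plaur difference was not tested.

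Plau (ENSMUSG00000021822, chromosome 14, 20836660 to 20843385), which encodes urokinase, the ligand of that receptor, was expressed at 0.912, 0.799 and 0.769 FPKM in Flox and 1.09, 1.64 and 1.45 FPKM in HepKO livers. The groups did not overlap, but the lowest HepKO liver lay close to the highest Flox liver. The means of 0.827 ± 0.0753 and 1.39 ± 0.278 FPKM (SD, n = 3) differed 1.69-fold, and the log2 fold change of 0.38 (SE 0.12, 95% interval 0.10 to 0.67) did not pass (limma adjusted p = 0.067). It passed without HepKO replicate 1 (0.48, limma adjusted p = 0.0497) and after median-ratio rescaling of the libraries (0.41, limma adjusted p = 0.048). In the authors' deposited table its q-value was 0.158. Plau was thus close to the threshold, on either side of it depending on the processing.

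Plat (ENSMUSG00000031538, chromosome 8, 22757727 to 22782844), which encodes the tissue-type activator found mainly in endothelium, was the least abundant member. It had 0.176, 0.241 and 0.205 FPKM in Flox and 0.793, 0.711 and 0.348 FPKM in HepKO livers. HepKO replicate 3 was well below the other HepKO livers, yet above all Flox livers. The means were 0.207 ± 0.0325 and 0.617 ± 0.237 FPKM (SD, n = 3), a ratio of 2.98, and 3.63 without HepKO replicate 3. With no filter on low levels, where 26473 genes were tested, its log2 fold change of 0.41 (SE 0.12) did not pass (limma adjusted p = 0.11). The authors' deposited table gives it a q-value of 0.0039.

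Plg (ENSMUSG00000059481, chromosome 17, 12378608 to 12419385), the zymogen gene and the most abundant member in every Flox liver, moved the other way. Its levels were 391, 456 and 391 FPKM in Flox and 242, 239 and 255 FPKM in HepKO livers. The 3 HepKO livers lay close together (coefficient of variation 3.48%, against 9.03% in Flox) and well under every Flox liver. The means were 413 ± 37.2 and 246 ± 8.56 FPKM (SD, n = 3), 1.68-fold lower in HepKO (log2 fold change -0.74, SE 0.10, 95% interval -0.99 to -0.50, limma adjusted p = 0.0048). Without HepKO replicate 1 the log2 fold change was -0.73 (limma adjusted p = 0.015). Its annotated span shares 426 bases with Slc22a3 on the opposite strand, which had a mean of only 0.385 FPKM. Of the 8 hepatocyte markers, 3 also fell (Cps1, Asgr1 and Hnf4a), 0 rose and 5, Alb among them, did not pass. Their part in the fall of Plg was not tested.

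Serpinf2 (ENSMUSG00000038224, chromosome 11, 75431732 to 75439578), the plasmin inhibitor gene, had 261, 358 and 333 FPKM in Flox and 262, 284 and 288 FPKM in HepKO livers. The groups overlapped, since Flox replicate 1 was at the level of the lowest HepKO liver. The log2 fold change was -0.18 (SE 0.14, 95% interval -0.51 to 0.15, limma adjusted p = 0.40). Cpb2 (ENSMUSG00000021999, chromosome 14, 75242287 to 75283555), whose product in its active form slows fibrin breakdown, had 153, 137 and 138 FPKM in Flox and 153, 151 and 132 FPKM in HepKO livers. Its groups covered nearly the same range, and the log2 fold change of 0.03 (SE 0.11, 95% interval -0.23 to 0.28) did not pass (limma adjusted p = 0.89). Neither interval excludes a small change in either direction. Plg, Serpinf2 and Cpb2 were all at or above the 98.8th percentile of expressed genes by Flox level, whereas the other members lay between the 43.9th and 65.6th percentiles.

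F3 (ENSMUSG00000028128, chromosome 3, 121723537 to 121735048), the tissue factor gene, had 1.46, 1.10 and 0.623 FPKM in Flox and 3.999, 3.46 and 2.804 FPKM in HepKO livers. The lowest HepKO liver was above the highest Flox liver, and the Flox livers varied most in relative terms (coefficient of variation 39.5%, against 17.5% in HepKO). The means were 1.06 ± 0.42 and 3.42 ± 0.599 FPKM (SD, n = 3), a 3.22-fold rise (log2 fold change 1.11, SE 0.18, 95% interval 0.68 to 1.55, limma adjusted p = 0.0085). The fold was 2.67 without Flox replicate 3 and 3.97 without Flox replicate 1. Without HepKO replicate 1 the log2 fold change was 1.02 (limma adjusted p = 0.033).

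Tfpi (ENSMUSG00000027082, chromosome 2, 84432855 to 84476763), which encodes the inhibitor of the tissue factor complex, had 1.12, 0.735 and 0.961 FPKM in Flox and 0.564, 1.51 and 0.756 FPKM in HepKO livers. The HepKO livers spanned the whole Flox range, with replicate 2 the highest of all 6 livers and replicate 1 the lowest. The means of 0.939 ± 0.194 and 0.943 ± 0.499 FPKM (SD, n = 3) gave a log2 fold change of -0.02 (SE 0.19, 95% interval -0.48 to 0.44, limma adjusted p = 0.95). The interval is wide, so a moderate change in either direction was not detectable in these libraries.

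Thbd (ENSMUSG00000074743, chromosome 2, 148404466 to 148408188), the thrombomodulin gene, had 1.42, 1.64 and 1.72 FPKM in Flox and 11.03, 12.1 and 7.08 FPKM in HepKO livers. The Flox livers were close together and low, and each HepKO liver was several times higher. The means were 1.59 ± 0.155 and 10.1 ± 2.63 FPKM (SD, n = 3), a 6.32-fold rise (log2 fold change 2.06, SE 0.19, 95% interval 1.61 to 2.52, limma adjusted p = 0.0013), the 71st largest rise among all tested genes. Without HepKO replicate 1 the log2 fold change was 1.99 (limma adjusted p = 0.0075). Thrombomodulin is known as an endothelial surface protein. Of 9 tested endothelial markers, 4 rose (Pecam1, Cdh5, Stab1 and Lyve1), 1 fell (Kdr) and 4 did not pass. Their sums, over 10 genes, were 34.0 to 39.6 FPKM in Flox and 42.1 to 57.4 FPKM in HepKO livers. Of the 4 tested platelet and megakaryocyte markers, 2 rose (Pf4 and Ppbp), with sums over 6 genes of 2.19 to 4.73 and 8.95 to 15.0 FPKM. Their part in the Thbd difference was not tested.

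**Figure D3:**
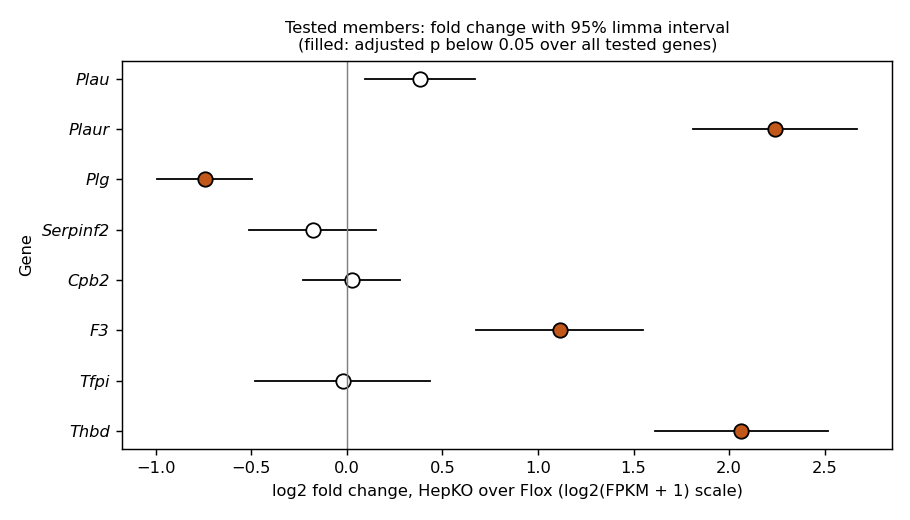
Log2 fold change of the 8 tested members, HepKO over Flox, on the log2(FPKM + 1) scale. Points are estimates, lines are 95% limma intervals and filled points have an adjusted p below 0.05 over all tested genes; Plaur, Thbd and F3 lie to the right of 0, Plg lies to the left, and the intervals of Serpinf2, Cpb2 and Tfpi include 0.

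Among the HepKO livers, Plaur, F3 and Thbd were each lowest in replicate 3, as was the untested Plat. Over all 1186 genes called higher, replicate 3 was the lowest HepKO liver in 46.9%, replicate 1 in 30.6% and replicate 2 in 22.5%, so a low replicate 3 was also the commonest pattern among all rising genes. Likeness to other genes was measured as the root mean square distance between centred log2(FPKM + 1) profiles over the 6 libraries, among 10687 genes that averaged 1 FPKM or more. The profiles were not scaled, so this distance depends on the size of the difference between the groups. That difference was known when members were picked, so nearness of 1 member to another is no independent evidence. The nearest of 10686 genes to Plaur were Ndrg1 (distance 0.11), Thbd (0.14), which is another member, and Thbs1 (0.17). Those nearest to F3 were C5ar1 (0.085), which encodes the complement C5a receptor, Myl9 (0.11) and Pnrc1 (0.11). Those nearest to Plg were the hepatocyte enzyme genes Aldh6a1 (0.029) and Upb1 (0.039) and the clotting inhibitor gene Serpina10 (0.046).

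Ratios of 2 members within a library do not depend on how libraries are scaled, and they are given as a description with no test. Plaur to Plau, receptor over ligand, was 1.16, 1.51 and 2.32 in Flox and 9.74, 7.24 and 5.46 in HepKO livers. The receptor transcript was thus the more abundant of the pair in all 6 livers, and the ratio was 4.57-fold higher in HepKO by geometric means. F3 to Tfpi, initiator over inhibitor, was 1.302, 1.50 and 0.648 in Flox and 7.09, 2.30 and 3.71 in HepKO livers. The groups did not overlap although the HepKO values were widely spread, and the ratio was 3.63-fold higher in HepKO. Thbd to F3 was 0.973, 1.48 and 2.76 in Flox and 2.76, 3.48 and 2.53 in HepKO livers, and here the groups overlapped.

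Plg to Serpinf2, zymogen over plasmin inhibitor, was 1.50, 1.27 and 1.18 in Flox and 0.925, 0.842 and 0.887 in HepKO livers. Plg had the higher FPKM of the pair in every Flox liver, and Serpinf2 had the higher in every HepKO liver. Plg to Cpb2 was 2.55, 3.33 and 2.85 in Flox and 1.59, 1.58 and 1.94 in HepKO livers, so plasminogen stayed the more abundant of that pair throughout, by a smaller margin in HepKO.

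**Figure D4:**
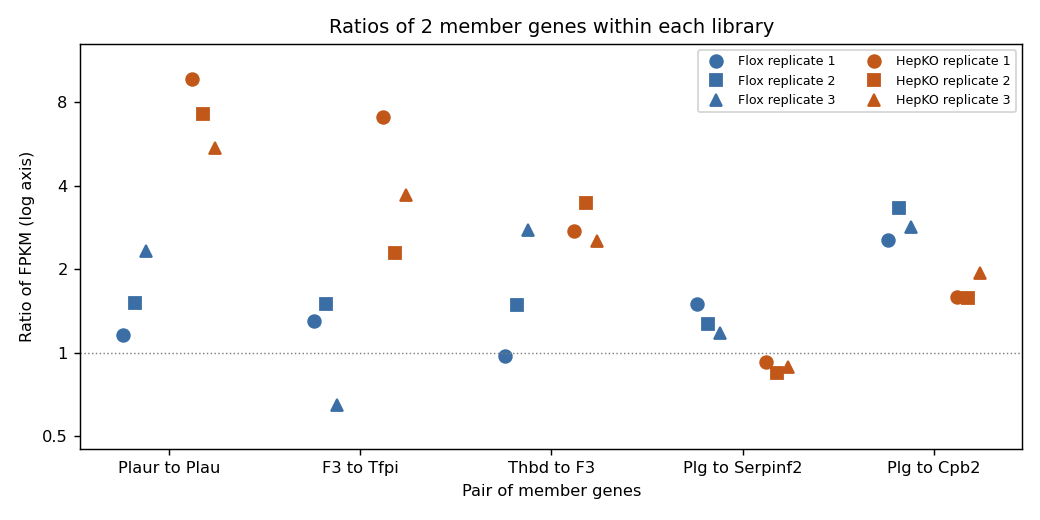
Ratio of the FPKM of 2 member genes within each library, on a log axis. Points are libraries (blue Flox, orange HepKO, shape gives the replicate) and the dotted line marks equal levels; HepKO livers lie above all Flox livers for Plaur to Plau and F3 to Tfpi, below them for both Plg ratios, and overlap them for Thbd to F3.

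Around the members, 50 partner genes of plasmin formation, clotting and fibrin were read from the same fit. Of the 41 that were tested, 12 rose, 14 fell and 15 did not pass, against 9.33% higher and 11% lower over all tested genes, with a median log2 fold change of -0.16 (-0.06 over all tested genes). The lists were chosen with these data known, and nothing particular to them is read from the counts. After the same pair of rescalings, 12 partners rose in each and 11 and 10 fell. The count of falls was 8 without Flox replicate 2, 8 without Flox replicate 3 and 7 without HepKO replicate 2, and the count of rises was 8, 9 and 8 in the same fits. Fgb, Fgg, F13a1, F7, F10 and S100a10 were chosen after their values were seen, and the others follow a rule on size of change and abundance.

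Of 7 tested genes listed for fibrin and its cross-linking, 6 rose and 1 fell (9.33% and 11% over all tested genes). This list, which also holds Thbs1 and Fn1, had a median log2 fold change of 0.81 (-0.06 over all tested genes). The fibrinogen chain genes are among the most abundant hepatocyte transcripts. Fga rose 1.89-fold, from 2763 ± 495 to 5219 ± 463 FPKM (SD, n = 3; limma adjusted p = 0.0088), Fgb rose 1.75-fold (limma adjusted p = 0.0051) and Fgg rose 1.38-fold (limma adjusted p = 0.034). The Fgg call was lost when any library but Flox replicate 1 was left out, with log2 fold changes of 0.39 to 0.49, and after rescaling to a common sum (0.41, limma adjusted p = 0.073). The matrix glycoprotein gene Thbs1 rose 8.08-fold, from 1.76 to 14.2 FPKM. F13b, which encodes the carrier subunit of the fibrin cross-linking enzyme, fell 2.09-fold, from 29.1 to 13.9 FPKM (limma adjusted p = 0.0046). F13a1, which encodes the catalytic subunit of that enzyme and is known from macrophages and platelets, rose from 0.238, 0.253 and 0.1504 FPKM in Flox to 2.12, 1.84 and 1.57 FPKM in HepKO livers (limma adjusted p = 0.0014), so the transcripts of the 2 subunits moved in opposite directions.

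Of 9 tested protease inhibitor genes, 0 rose and 5 fell (9.33% and 11% over all tested genes), with a median log2 fold change of -0.56 (-0.06 over all tested genes). Tfpi2, which encodes a Kunitz-type inhibitor related to Tfpi, fell 2.66-fold, from 18.7 ± 0.865 to 7.03 ± 0.94 FPKM (SD, n = 3; limma adjusted p = 0.0012). In both groups it was far more abundant than Tfpi itself, which averaged 0.939 and 0.943 FPKM. The broad protease inhibitor gene Pzp, the most abundant of the list, did not pass, with group means of 646 (Flox) and 721 (HepKO) FPKM (limma adjusted p = 0.45).

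Among 8 tested genes of the tissue factor pathway and thrombin generation, 1 rose and 4 fell (9.33% and 11% over all tested genes). Their median log2 fold change was -0.45 (-0.06 over all tested genes). F7, which encodes the plasma partner of tissue factor, fell from 29.4 ± 6.00 to 18.1 ± 2.26 FPKM (SD, n = 3; limma adjusted p = 0.042). That call was lost when any library but Flox replicate 1 was left out, with log2 fold changes of -0.74 to -0.55. F10, the substrate of that complex, had 92.0 and 68.3 FPKM and did not pass (limma adjusted p = 0.075), and neither did prothrombin, F2, with 273 and 243 FPKM (limma adjusted p = 0.26). Klkb1, the plasma kallikrein gene, fell 4.10-fold to 4.84 FPKM, while F11, its close relative in the contact pathway, rose 1.51-fold, from 19.9 to 30.1 FPKM (limma adjusted p = 0.0075).

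Plasminogen binding and clearance genes were mixed, with 2 higher and 3 lower of 8 tested (9.33% and 11% over all tested genes). Anxa2, an annexin gene whose product binds plasminogen and the tissue-type activator at the cell surface, rose 3.24-fold, from 6.93 ± 1.301 to 22.5 ± 3.97 FPKM (SD, n = 3; limma adjusted p = 0.0026). S100a10, the gene of its light-chain partner, had 144 and 165 FPKM and did not pass (limma adjusted p = 0.61). The plasma proteins vitronectin (Vtn, 1195 to 885 FPKM, limma adjusted p = 0.026) and histidine-rich glycoprotein (Hrg, 471 to 325 FPKM, limma adjusted p = 0.047) had lower transcripts. The Vtn call was lost without Flox replicate 1, 2 or 3 or HepKO replicate 2, with adjusted p of 0.054 to 0.098 in those limma fits, and the Hrg call without Flox replicate 2 or 3 or HepKO replicate 2 or 3, with 0.10 to 0.14.

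In the protein C pathway, Procr, the endothelial receptor that presents protein C to the complex of thrombin and thrombomodulin, rose 3.20-fold, from 5.51 ± 1.69 to 17.7 ± 4.60 FPKM (SD, n = 3; limma adjusted p = 0.010). It was the only call among 4 tested genes of that list, against 20.3% called over all tested genes. Proc itself had 115 and 97.7 FPKM and did not pass (limma adjusted p = 0.14). Among 5 tested substrate genes, 2 rose and 1 fell (9.33% and 11% over all tested genes). Mmp9, a gelatinase gene also expressed by neutrophils, rose 11.2-fold from a low level of 0.182 FPKM to 2.04 FPKM. Mst1, the gene of a plasminogen-related growth factor, fell from 57.6 to 45.7 FPKM (limma adjusted p = 0.042), a call lost whichever of the 6 libraries was left out (adjusted p of 0.073 to 0.13).

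**Figure D5:**
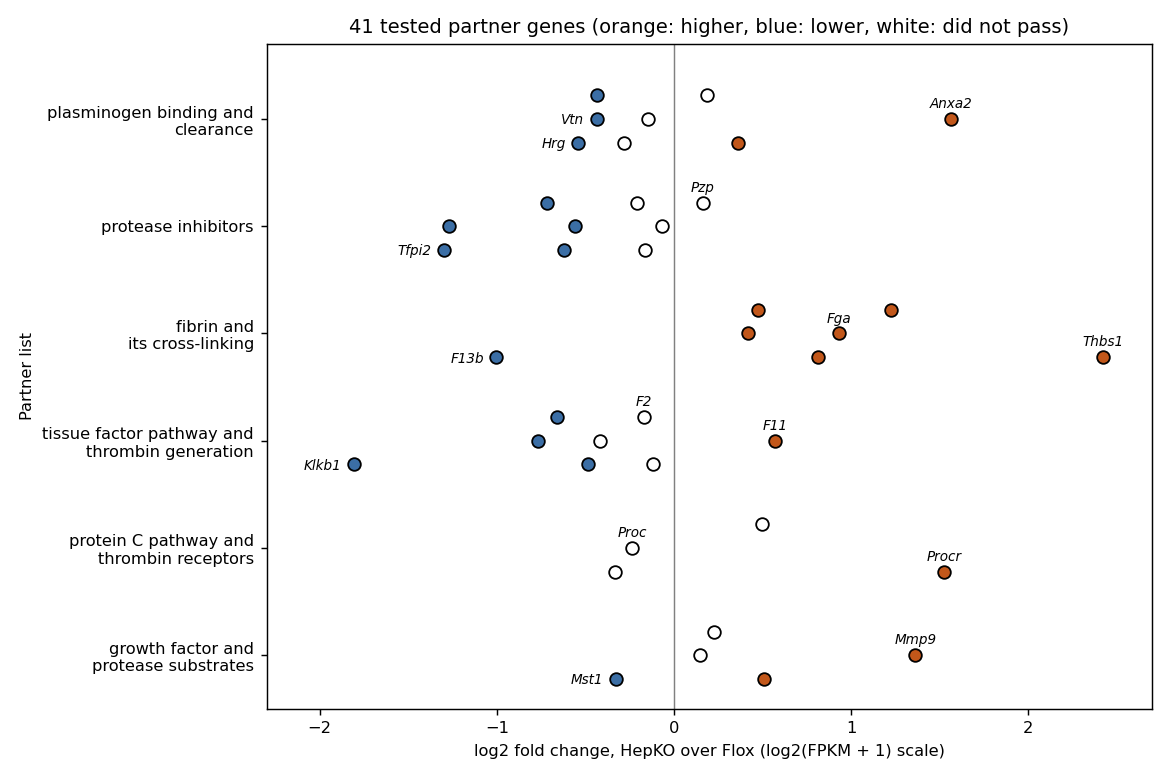
Log2 fold change of the 41 tested partner genes, HepKO over Flox, on the log2(FPKM + 1) scale, by list. Each point is a gene, orange if called higher, blue if called lower and white if it did not pass; the fibrin list has 6 orange points and 1 blue, and the protease inhibitor list has 5 blue and 0 orange.

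The authors' deposited table gave a q-value under 0.05 to 8.97% of its 28476 genes, of which only 12712 averaged 0.5 FPKM or more. Among the 9 members it did so for 5: Plaur, Thbd, F3, Plg and Plat. The first 4 are the members called by limma. The fifth, Plat, was below the expression minimum of the limma fit, and with no filter it did not pass either (limma adjusted p = 0.11).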

How the data were processed

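Total RNA was taken from 6 livers, enriched for poly(A) RNA and read from both fragment ends, per the labels' protocols. The deposited table gives FPKM per gene and library, computed by the authors, per the file headers. Tools listed in the submitters' processing notes, with no role stated, are edgeR, DESeq2, StringTie 1.3.4d, HISAT2 2.0.4 and cutadapt 1.9. Its p-value and q-value columns come from the authors, and neither that test nor the genome build is given in the sources used here. Among the gene IDs, 28396 are in GENCODE M21 (GRCm38), 25582 with identical coordinates, 7 of the 9 members among them, so GRCm38 is named. FPKM keep no counts: the modal log2 ratio of low values held at most 6.70% of genes in any library pair, so depth is unknown.

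Groups were compared with limma 3.58.1 (R 4.3.3) for genes averaging 0.5 FPKM or more. The model had genotype alone, on log2(FPKM + 1), with a variance trend and two-sided tests. The scale understates the change of low genes, and folds are ratios of group means. The script was tested on simulated data. Exact permutation of 3 against 3 libraries cannot go below p = 0.10 and was not used. Alternatives were other pseudocounts, filters, scalings, thresholds, limma settings, the replicate number as a block, and each library left out. Members and lists were chosen with earlier results of these data known. All members were named, and of each partner list the largest called rise, the largest called fall and the most abundant gene. For F3, Plaur and Plg the 3 genes of nearest profile were named. Of the marker lists, stellate and fibroblast genes had 2 higher and 0 lower of 8 tested, and cholangiocyte genes 2 and 0 of 4. Not every gene of the plasminogen system is reported here. Plots were made with Python 3.11.15 and matplotlib 3.10.9.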

Additional observations from a re-analysis of the deposited data

How the results depend on the processing

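The rises of Plaur, Thbd and F3 and the fall of Plg kept their direction and their call in all 18 alternatives, and Serpinf2 did not pass in any. Log2 fold changes ranged from 2.13 to 2.83 for Plaur, 1.93 to 2.55 for Thbd, 0.95 to 1.66 for F3 and -0.80 to -0.67 for Plg. Plau passed in 4 of 18, those without HepKO replicate 1, at a threshold of 0.1, after median-ratio rescaling and after rescaling to a common sum without mitochondrial and the 50 most abundant genes. Cpb2 and Tfpi, which never passed, changed sign: Cpb2 to -0.034 after rescaling to a common sum and from -0.0125 to 0.0931 without 1 library, Tfpi to 0.0068 and 0.0037 after the other 2 rescalings and from -0.22 to 0.12 without 1 library. Over all genes, 939 were called at a threshold of 0.01 and 1306 to 2282 without 1 library (1306 without HepKO replicate 2, 1661 without HepKO replicate 1, and 1322 and 1480 when Flox replicate 2 or 3 was left out), against 2583. Among partners, 7 rose and 7 fell at 0.01, and 7 to 12 fell without 1 library. The cause of these shifts was not tested. With the replicate number as a block, 1551 genes were called, 8 partners rose and 9 fell, the calls of Fgg, Hrg, Vtn and Mst1 were lost (adjusted p of 0.086 to 0.12), and the members' calls were the same 4. Deviations of same-numbered libraries correlated at only -0.03 to 0.0029, so the numbers were not taken as pairs. With no filter, where more genes were tested, the calls of Fga, Fgg, F7, Hrg and Vtn were lost (adjusted p of 0.053 to 0.18), and those of Fgg, Hrg, Mst1 and F7 were lost under at least 1 rescaling. Depth is unknown, which limits what can be said of Plat, Plau and Tfpi, the members at about 1 FPKM or less. The same limit applies to the size of the folds of F3, Plaur and Thbd. Their Flox means were only 1.06, 1.35 and 1.59 FPKM.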
